A study of Mus musculus with 12 samples.

Results

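The 40 genes described here are the macrophage and innate immune genes of mouse teratomas, chosen by symbol from a list of leukocyte, macrophage and neutrophil genes and not by their values. All 40 were found among the 38986 genes listed, and 34 passed the filter on low counts that precedes the test. Teratomas were raised from R1 mouse embryonic stem (ES) cells that carried the pEZ-LV235 lentiviral vector with a CAG promoter, a strong promoter that is active in most cell types, and that had been selected with puromycin. The empty vector (ET) is the control, WT carries wild-type Dnmt3L, a catalytically inactive cofactor of the de novo DNA methyltransferases, and K238R and K412R carry Dnmt3L in which the lysine at that position, a site of acetylation, is replaced by arginine. In every group 5000000 cells were injected under the skin of 8-week-old male NOD-PrkdcEM1 mice, and RNA was taken on day 21 from 3 teratomas, so that 12 poly(A) libraries were sequenced in 4 groups of 3. Mice without Prkdc cannot join antigen receptor gene segments, so the host lacks mature T and B cells but keeps macrophages, granulocytes and natural killer (NK) cells. Host and graft are both mouse, and reads assigned to gene symbols do not tell host RNA from graft RNA. Whether the 3 teratomas of a group grew in separate mice is not stated in the labels, so the p-values below measure the spread between these samples.

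Macrophages arise from blood monocytes or from embryonic precursors, depend on signals through the receptor Csf1r and on the transcription factor Spi1 (PU.1), and take up dying cells, matrix and microbes through Fc, complement, scavenger and lectin receptors. They secrete lysozyme and the subunits of complement C1q, and they attract further leukocytes with chemokines. In a graft under the skin they are among the main host cells to enter, together with endothelium, fibroblasts and neutrophils, the short-lived granulocytes of the first response to injury. Resident tissue macrophages are rich in the mannose receptor Mrc1 and in C1q, whereas newly arrived monocytes carry Ccr2.

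Total counts were between 16957677 and 18546100 in the 12 libraries, so the deepest held 1.09 times the counts of the shallowest, and levels are given as CPM, the count scaled to the total of its library. At this depth 3 counts correspond to 0.162 to 0.177 CPM, and such floors cover counting error only. Dnmt3l, the transgene, stood at 165 to 204 CPM for WT and 25.99 to 38.9 CPM for K412R, but at 0.543 to 1.89 CPM in the libraries labelled K238R against 0.649 to 7.62 CPM for ET, so the transcript does not bear out that label and these 3 are named by it only. ET replicate 2 and WT replicate 1 were each nearest to the other over the 18405 genes tested (Pearson r of log2 CPM 0.983) and less like their own groups (0.950 to 0.967 and 0.970 to 0.971). They were not alone in this. ET replicate 1 and replicate 1 of the libraries labelled K238R were nearest to each other too (0.981, against at most 0.979 and 0.974 in their own groups). Replicate 2 of the libraries labelled K238R was nearest to ET replicate 2 (0.976, against at most 0.974). ET replicate 2 and WT replicate 1 are called the 2 unlike libraries below. Calls and medians of the members that rest on either are given with and without it, or without both. Fitted results of the wider myeloid lists and of the marker lists are given with all 12 libraries only. The other libraries were left out singly only.

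The 40 genes took between 0.0351% and 0.0674% of a library's counts, 351 to 674 CPM. Their summed level was 491 CPM ± 75.7 (SD, n = 3) for ET, 516 ± 138 for WT, 390 ± 62.9 for those labelled K238R and 518 ± 4.69 for K412R. The 3 K412R libraries lay within 515 to 523 CPM of each other. WT spanned 422 to 674 CPM, and without WT replicate 1 its range was 422 to 451 CPM. ET spanned 426 to 574 CPM, and without ET replicate 2 its range was 426 to 474 CPM. In a bulk library, fewer cells of a type and less RNA per cell cannot be told apart, so these levels do not count macrophages.

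**Figure D1:**
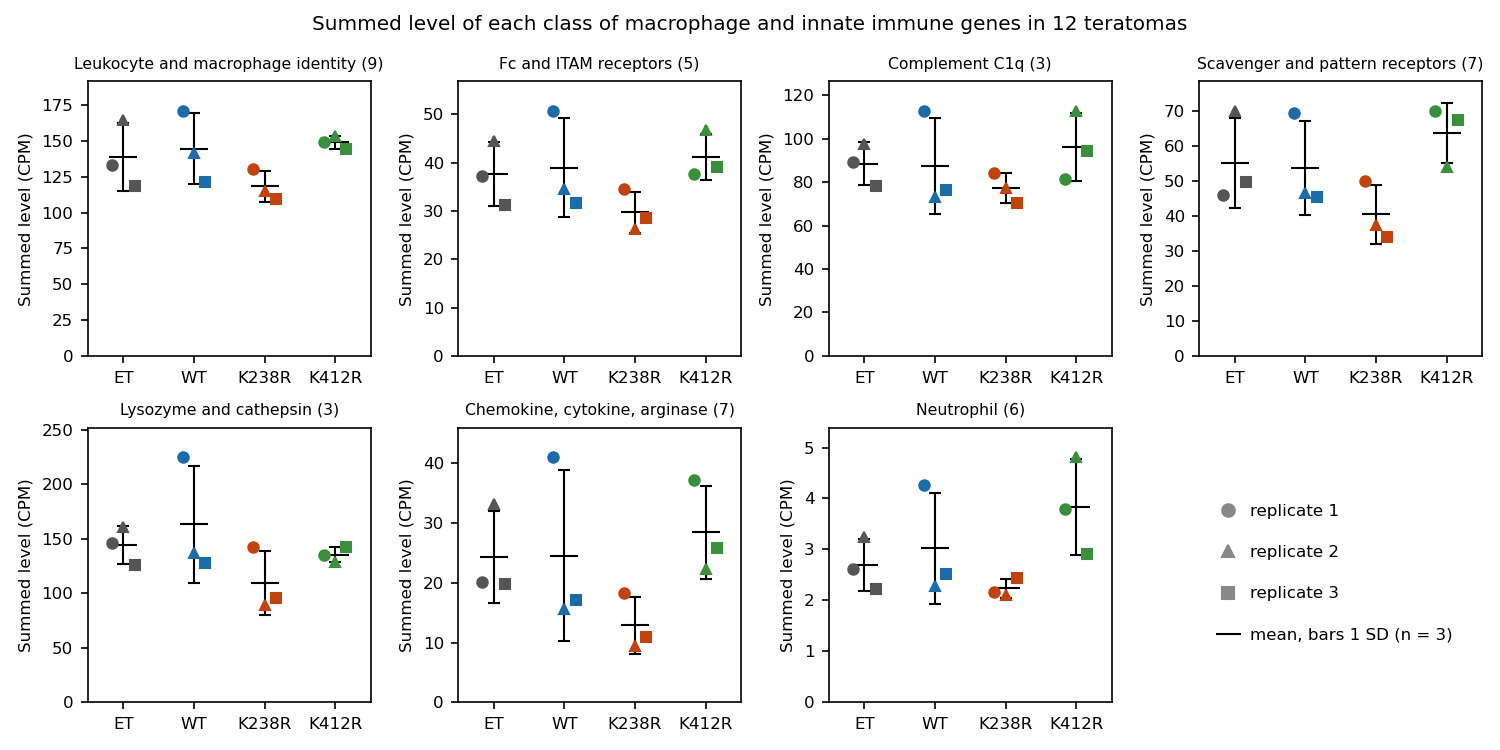
Summed level of each of the 7 classes (CPM, y axis) in ET, WT, the libraries labelled K238R (K238R on the axis) and K412R; each point is 1 library and the line and bars are the mean and 1 SD of 3. WT replicate 1 is the highest library in the leukocyte, Fc receptor, lysozyme and chemokine panels, and the 3 libraries labelled K238R lie below all 3 of K412R in every panel but the complement and lysozyme ones.

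Levels were compared per kilobase of exon, so that genes of unlike length can be set side by side. The length is that of all exons of a gene joined in GENCODE M21, an annotation other than that of the counts. It can exceed the length of any single transcript, which lowers the value per kb. On this scale Lyz2 (lysozyme M, the bacteriolytic enzyme of macrophages and monocytes) was the most abundant member, at a mean of 82.1 CPM per kb over the 12 libraries. The 3 C1q chains followed with C1qb at 29.5, C1qa at 24.6 and C1qc at 15.4 CPM per kb, together with Cd68, a glycoprotein of lysosomes, at 21.4 and Ctss, the elastolytic protease cathepsin S, at 20.1 CPM per kb. The adaptors Tyrobp and Fcer1g stood at 11.9 and 9.94 CPM per kb. At the low end were Ly6g with no count, Mpo at 0.0319, Cxcr2 at 0.0896 and Marco at 0.163 CPM per kb. Lysosomal and complement genes thus led the order, while its low end held genes of several classes, among them Tnf (0.183), Cd163 (0.218) and Ccr2 (0.247).

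The label of these genes was checked against their defining markers. Csf1r was counted 373 to 629 times per library, Adgre1 (F4/80, the adhesion receptor that defines mouse macrophages) 167 to 261 times and Ptprc (CD45, the phosphatase found on all nucleated blood cells) 97 to 221 times. The neutrophil surface antigen Ly6g was at 0 in all 12 libraries, which over all libraries together allows up to 0.0140 CPM. Mpo (myeloperoxidase of neutrophil granules) had 0 to 7 counts per library and 23 in all, S100a8 0 to 8 and 42 in all, and Cxcr2 (the neutrophil chemokine receptor) 1 to 13 and 59 in all. S100a9 had 2 to 22 counts per library and Csf3r, which monocytes also carry, 19 to 48. The macrophage markers were thus counted in every teratoma, and of the 6 neutrophil members Csf3r, S100a9 and Cxcr2 were counted in every library at low levels, whereas Ly6g was in none.

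Promoter windows are shown for 4 members from different classes that the results below turn on. They come from RefSeq on build GRCm38.p6 and run from 250 bases before the annotated start to 50 after it, 5′ to 3′ on the gene's own strand. The deposited counts were made on GRCm39, so the windows were matched by symbol. Capitals mark GAGGAA, the core that PU.1 binds, or its reverse complement TTCCTC. Ptprc lies on chr1:138175256-138175555 (minus strand), C1qc on chr4:136892865-136893164 (minus), Ctss on chr3:95526536-95526835 (plus) and Lyz2 on chr10:117282223-117282522 (minus).
Ptprc: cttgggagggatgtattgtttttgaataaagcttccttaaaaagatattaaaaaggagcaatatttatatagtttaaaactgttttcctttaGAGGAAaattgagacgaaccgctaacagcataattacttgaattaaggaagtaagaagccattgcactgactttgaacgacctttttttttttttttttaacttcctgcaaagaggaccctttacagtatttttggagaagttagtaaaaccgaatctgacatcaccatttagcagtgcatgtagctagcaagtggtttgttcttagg
C1qc: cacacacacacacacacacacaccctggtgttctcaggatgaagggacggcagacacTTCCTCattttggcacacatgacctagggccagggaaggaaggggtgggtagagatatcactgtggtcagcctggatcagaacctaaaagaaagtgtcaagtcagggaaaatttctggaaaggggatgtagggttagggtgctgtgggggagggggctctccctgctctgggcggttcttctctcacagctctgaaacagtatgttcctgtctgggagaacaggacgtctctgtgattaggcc
Ctss: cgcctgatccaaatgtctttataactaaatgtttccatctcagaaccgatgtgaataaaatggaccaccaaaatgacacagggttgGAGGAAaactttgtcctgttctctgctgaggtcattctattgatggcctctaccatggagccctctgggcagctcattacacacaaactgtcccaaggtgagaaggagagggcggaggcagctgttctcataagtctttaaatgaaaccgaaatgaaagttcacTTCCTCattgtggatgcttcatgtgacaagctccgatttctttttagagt
Lyz2: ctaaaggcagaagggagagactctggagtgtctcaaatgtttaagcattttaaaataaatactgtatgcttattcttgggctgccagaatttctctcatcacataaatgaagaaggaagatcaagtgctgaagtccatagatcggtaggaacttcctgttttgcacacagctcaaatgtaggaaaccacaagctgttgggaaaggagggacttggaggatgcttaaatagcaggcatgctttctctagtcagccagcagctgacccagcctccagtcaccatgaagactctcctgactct
The Ptprc and C1qc windows hold 1 match each, the Ctss window 2 and the Lyz2 window 0. A promoter window was found for 30 of the 40 members. GAGGAA on either strand occurred in 20 of these 30 genes (66.7%) and in 31.2% of all 27025 genes with windows, counting a gene once if any of its windows held it. By class it was present in 5 of 6 leukocyte genes, 3 of 4 Fc receptor and adaptor genes, 2 of 2 complement genes, 3 of 4 scavenger and lectin receptor genes, 5 of 6 neutrophil genes, 1 of 3 lysozyme and cathepsin genes and 1 of 5 chemokine and cytokine genes. Other motifs were counted the same way, on both strands. TATAAA was present in 33.3% of member genes and 15.7% of all genes, and TGACTCA in 3.33% and 5.95%. These are matches of letters in 1 window per start site and not binding sites.

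Among the 9 genes of leukocyte and macrophage identity, Ptprc separated the libraries labelled K238R from the rest. It stood at 9.38, 9.44 and 7.84 CPM for ET replicates 1, 2 and 3, at 12.4, 8.14 and 7.07 for WT, at 5.99, 5.39 and 5.27 for those labelled K238R and at 8.41, 8.99 and 9.65 for K412R. All 3 libraries labelled K238R lay below the other 9. The share of all genes in that order, or without overlap between these libraries and K412R, is not given here. Against ET 4.24% of all genes were lower without overlap, and against WT 11.3%. Csf1r, the receptor for the growth factor that macrophages need to survive, ran from 20.3 to 36.9 CPM, with 26.04, 36.9 and 20.7 for ET, 35.4, 30.8 and 25.9 for WT, 29.3, 25.2 and 20.3 for those labelled K238R and 29.2, 33.98 and 29.9 for K412R. Its groups overlapped throughout. Laptm5, a lysosomal membrane protein of blood cells, stood at 23.6, 25.1 and 24.1 CPM for those labelled K238R, below all WT libraries (37.0, 33.6 and 28.4) and all K412R libraries (32.1, 31.9 and 31.5) but within the span of ET (27.7, 38.1 and 22.3).

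Spi1, which encodes PU.1, ran from 3.56 to 7.49 CPM, with ET holding both ends, and its 3 libraries labelled K238R were at 3.83 to 4.11. Adgre1 varied least of the lineage markers after Cx3cr1, from 9.28 to 14.7 CPM. Itgam (CD11b, an integrin that binds complement fragments) was at 3.56 and 3.15 CPM in replicates 2 and 3 of the libraries labelled K238R but at 6.96 in replicate 1, and at 4.78 to 8.26 elsewhere. Cd68 ran from 18.8 to 36.4 CPM. Aif1 (IBA1, an actin-bundling protein of macrophages and microglia) went its own way: it was highest in ET replicates 1 and 3 (6.94 and 6.73 CPM) and at 4.48 for ET replicate 2, at 5.00, 4.24 and 4.34 for WT, and at 4.89 to 5.61 in the other 6 libraries. Cx3cr1, the fractalkine receptor of resident macrophages and microglia, was at 14.5 to 15.1 CPM for ET, 15.7 to 16.8 for WT, 14.3 to 19.2 for those labelled K238R and 15.2 to 21.1 for K412R. It had the narrowest span of the 34 genes, with its highest library at 1.48 times its lowest.

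The 5 Fc receptor and adaptor genes carry signals from antibody and lipid receptors to the kinase Syk. Tyrobp (DAP12) stood at 8.24, 10.9 and 6.50 CPM for ET, 11.4, 6.802 and 6.39 for WT, 8.20, 6.06 and 5.16 for those labelled K238R and 7.08, 9.89 and 8.48 for K412R. Fcer1g, the common gamma chain, ran from 6.83 to 11.704 CPM, the IgG receptor genes Fcgr1 from 2.99 to 6.33 and Fcgr3 from 7.06 to 15.5. Trem2, a lipid receptor that signals through Tyrobp, was at 8.21 CPM for WT replicate 1, against 5.46 and 3.99 in the other WT libraries, and at 2.67 to 4.75 in the other 9. The 3 groups other than WT overlapped for Trem2.

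The 3 C1q chains, which assemble in equal parts into the recognition molecule of the classical complement pathway, kept similar proportions. C1qb stood at 34.2, 34.1 and 27.8 CPM for ET, 42.6, 26.5 and 29.7 for WT, 30.3, 28.3 and 26.3 for those labelled K238R and 30.1, 42.8 and 32.9 for K412R. Within a library the count of C1qa was 0.681 to 0.886 times that of C1qb and the count of C1qc 0.793 to 1.05 times, a narrower span than that of C1qb itself, whose highest library was 1.63 times its lowest. The summed level of the 3 chains was 88.5 CPM ± 9.87 for ET, 87.5 ± 21.9 for WT, 77.4 ± 7.01 for those labelled K238R and 96.3 ± 15.7 for K412R (SD, n = 3), with every group overlapping every other.

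**Figure D2:**
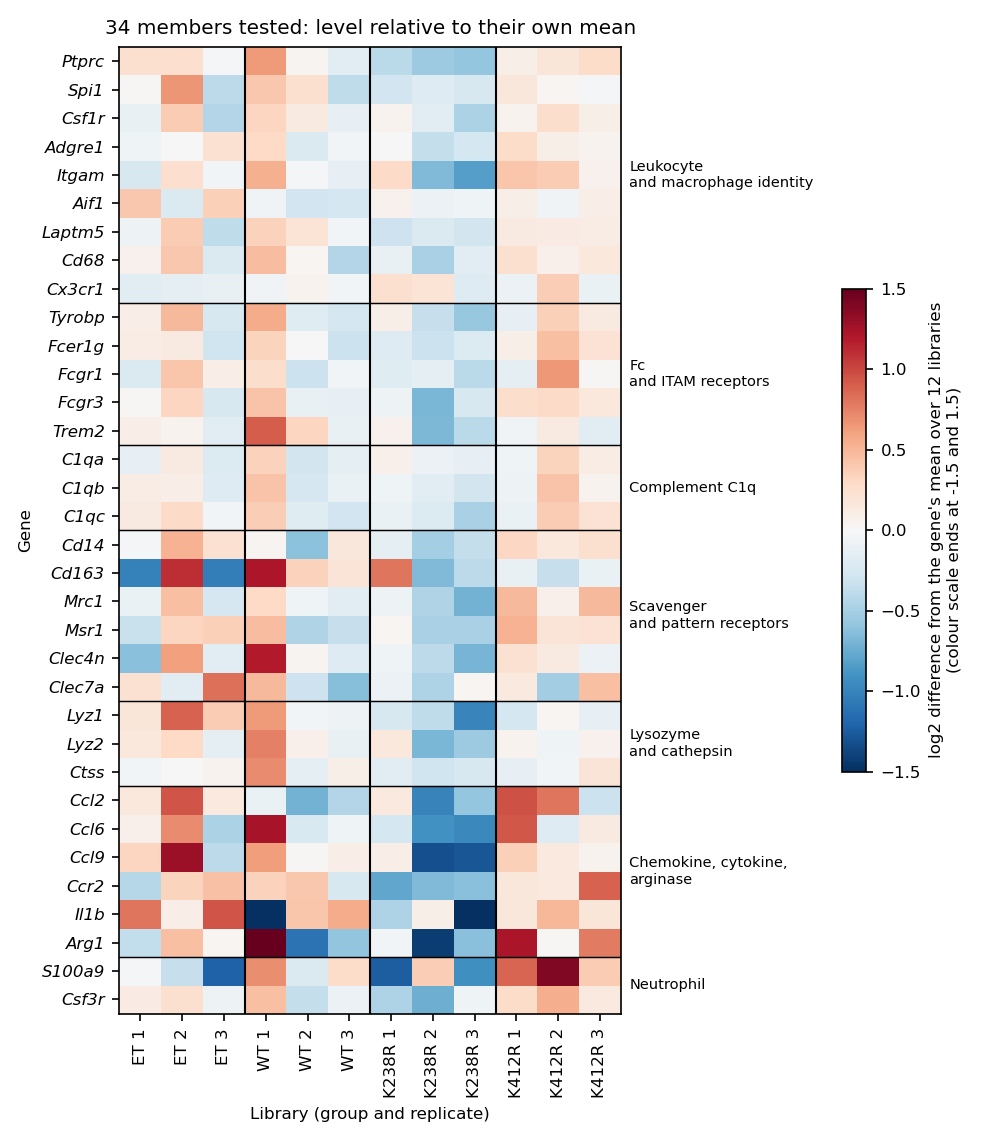
Level of each of the 34 members tested (rows, in classes) in each library (columns), as the log2 difference from that gene's mean over the 12 libraries; red is higher and blue lower. WT replicate 1 and ET replicate 2 are red in most rows, replicates 2 and 3 of the libraries labelled K238R (K238R on the axis) are blue in most rows, and Il1b runs the other way in WT replicate 1.

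Among the scavenger and pattern receptors, Mrc1, the mannose receptor of resident macrophages, was the most abundant. It stood at 31.5, 46.4 and 28.4 CPM for ET, 41.6, 32.3 and 30.2 for WT, 32.1, 24.6 and 20.6 for those labelled K238R and 47.5, 35.6 and 47.3 for K412R. K412R held the 2 highest libraries, and all 3 K412R libraries lay above all 3 labelled K238R, a pair of groups that was not compared over all genes. Msr1, the class A scavenger receptor, ran from 5.54 to 11.3 CPM and Cd14, the co-receptor for bacterial lipopolysaccharide, from 1.84 to 4.19. Cd163, the receptor for haemoglobin bound to haptoglobin, was at 2.36 CPM for ET replicate 2 but at 0.455 and 0.445 in the other ET libraries, at 2.53, 1.34 and 1.20 for WT, at 1.89, 0.611 and 0.760 for those labelled K238R and at 0.947, 0.792 and 0.954 for K412R. One library in each of ET, WT and the libraries labelled K238R was thus well above the other 2. The lectin Clec4n (Dectin-2) was at 6.69 CPM for WT replicate 1 and 4.48 for ET replicate 2, and at 1.74 to 3.40 in the other 10. Clec7a (Dectin-1) did not follow it, with its highest level of 4.78 CPM for ET replicate 3 and its lowest of 1.65 for WT replicate 3. Marco, a scavenger receptor of selected macrophage types, had 0 to 15 counts per library and was not tested.

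Of the secreted and lysosomal enzymes, Lyz2 stood at 117, 129 and 94.96 CPM for ET, 177, 110.2 and 97.0 for WT, 117, 65.2 and 71.7 for those labelled K238R and 108, 100.4 and 109 for K412R. WT replicate 1 was the highest library and replicates 2 and 3 of the libraries labelled K238R were the lowest. Ctss was at 43.9 CPM for WT replicate 1, and at 24.1 and 28.5 in the other WT libraries, 26.04 to 27.9 for ET, 21.8 to 24.1 for those labelled K238R and 24.6 to 30.7 for K412R. Lyz1 (lysozyme P, best known from Paneth cells of the gut) was at 3.07, 5.07 and 3.56 CPM for ET, 4.27, 2.62 and 2.57 for WT, 2.26, 2.06 and 1.30 for those labelled K238R and 2.23, 2.77 and 2.47 for K412R. All 3 ET libraries lay above all 3 K412R libraries and above all 3 labelled K238R.

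Lyz1 and Lyz2 are near-identical copies, so their first 90 coding bases are printed from the GENCODE M21 transcripts, with the 7 bases at which they differ in capitals.
Lyz1: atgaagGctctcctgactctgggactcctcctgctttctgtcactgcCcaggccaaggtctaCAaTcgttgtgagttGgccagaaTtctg
Lyz2: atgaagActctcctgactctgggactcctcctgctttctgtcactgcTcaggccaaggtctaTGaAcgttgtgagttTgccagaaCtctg
The 2 coding sequences are 447 bases long and differ at 22 bases (95.1% identity). In the transcripts of this annotation, which is not the one the counts were made with, 34.2% of the 31-base words of Lyz1 also occur in Lyz2. The count of Lyz1 was 1.82% to 3.94% of that of Lyz2, so the level of Lyz1 is uncertain to the extent that reads of Lyz2 were shared out to it. Of the other members, 68.1% of the 31-base words of Itgam, 23.1% of those of Csf3r and 13.4% of those of Fcgr3 occur in a transcript of another gene (mostly Gm49368, AC105061.2 and Fcgr2b), and the remaining 35 share under 10%.

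The chemokine, cytokine and arginase genes had the widest spread between teratomas. Arg1, the arginine-degrading enzyme of macrophages activated for repair, stood at 4.61, 8.26 and 6.12 CPM for ET, 18.9, 2.73 and 3.94 for WT, 5.82, 2.17 and 3.85 for those labelled K238R and 14.2, 6.05 and 10.4 for K412R. Its highest library was at 8.72 times its lowest. Ccl6, a chemokine made by macrophages, was at 12.6 CPM for WT replicate 1 and 10.3 for K412R replicate 1, at 4.52 and 5.08 in the other WT libraries, and at 4.42, 2.78 and 2.66 for those labelled K238R. Ccl9, a related chemokine, was at 1.06 and 1.09 CPM in replicates 2 and 3 of the libraries labelled K238R and at 2.11 to 7.02 elsewhere. Ccl2, the main attractant of monocytes, was at 3.24, 5.66 and 3.22 CPM for ET, 2.70, 1.73 and 2.11 for WT, 3.24, 1.39 and 1.90 for those labelled K238R and 5.74, 5.15 and 2.30 for K412R, so that all WT libraries lay below all ET libraries. Ccr2, the receptor for Ccl2 on inflammatory monocytes, was at 0.863, 0.945 and 0.977 CPM for those labelled K238R (16 to 18 counts each), below every one of the other 9, which ran from 1.14 to 2.98. The share of all genes in that order is not given here. Il1b, the inflammasome cytokine, was lowest in WT replicate 1 and in replicate 3 of the libraries labelled K238R (0.225 and 0.217 CPM, 4 counts each) and highest in ET replicates 1 and 3 (1.71 and 1.89). Tnf had 2 to 9 counts per library and was not tested.

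**Figure D3:**
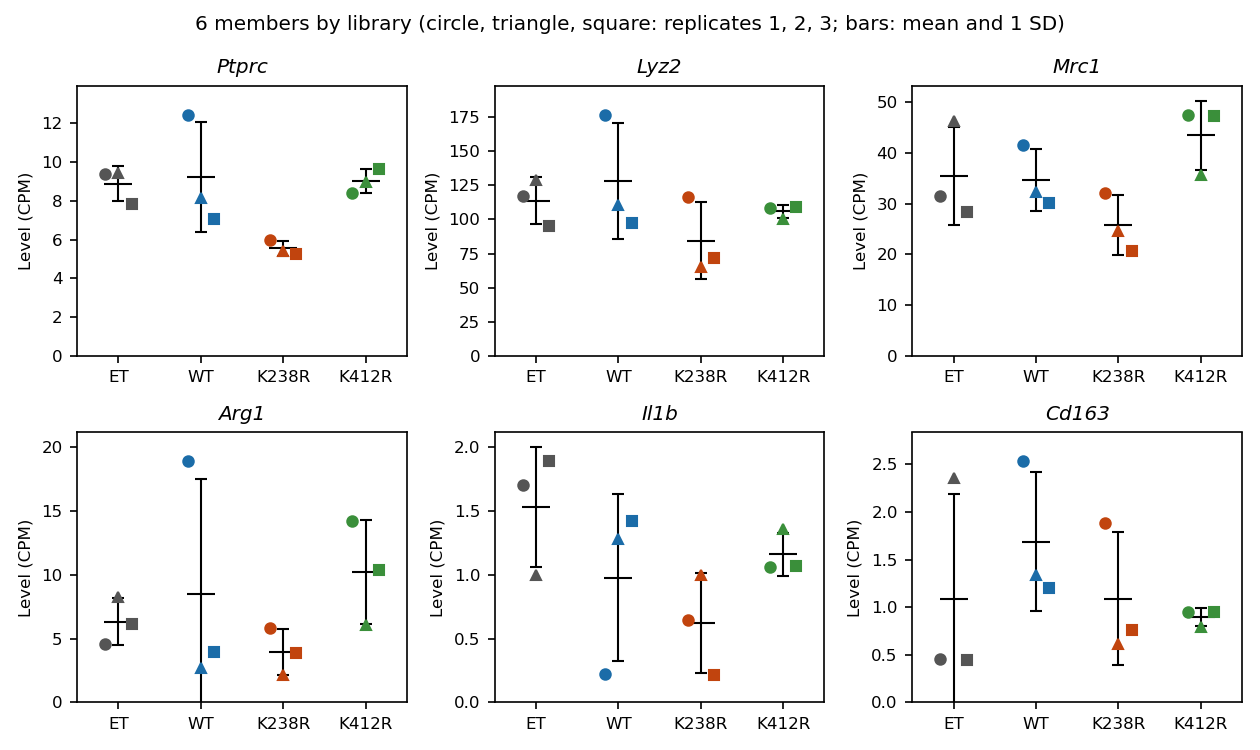
Level (CPM, y axis) of 6 members in the 3 libraries of ET, WT, the libraries labelled K238R (K238R on the axis) and K412R, with the mean and 1 SD; a lower bar that would pass below 0 ends at 0. Ptprc is lower in the 3 libraries labelled K238R (5.27 to 5.99) than in the other 9 (7.07 to 12.4), whereas Lyz2 and Arg1 are set apart by WT replicate 1 and Cd163 by single libraries of 3 groups.

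In the neutrophil class, Csf3r (the receptor for granulocyte colony-stimulating factor, present on monocytes as well) stood at 1.99, 2.18 and 1.72 CPM for ET, 2.53, 1.39 and 1.71 for WT, 1.29, 1.06 and 1.74 for those labelled K238R and 2.23, 2.71 and 2.02 for K412R. S100a9, which with S100a8 forms calprotectin, was at 0.398, 0.295 and 0.111 CPM for ET, 0.731, 0.335 and 0.513 for WT, 0.108, 0.556 and 0.163 for those labelled K238R and 0.836, 1.24 and 0.561 for K412R. These are 2 to 22 counts, and all K412R libraries lay above all ET libraries. The summed level of the class was 2.11 to 4.81 CPM, against 109.6 to 171 CPM for the leukocyte class.

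None of the 34 genes was called at an adjusted p under 0.05 in any of the 5 comparisons or in the test for any difference between the 4 groups (edgeR's quasi-likelihood test, Benjamini-Hochberg adjustment over 18405 genes). Over all genes tested, 0.0489% were called in WT against ET, 0.0% in the libraries labelled K238R against ET, 0.0% in K412R against ET, 0.223% in the libraries labelled K238R against WT, 2.04% in K412R against WT and 0.168% for any difference. At an unadjusted p under 0.05, 7 of the 34 members passed the test for any difference, beside 22.2% of all genes, and the lowest adjusted p among them was 0.129. DESeq2, the tool the study used, called 1 member, Ptprc, in the comparison of the libraries labelled K238R with WT and in the test for any difference, and no member elsewhere.

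The comparison of the libraries labelled K238R with ET asks how a Dnmt3L mutant differs from the empty vector, and here the transcript of the mutant was not above that of ET. Of the 34 genes, 32 had a lower fitted level in the libraries labelled K238R, beside 53.6% of all genes tested, and their median log2 fold change was -0.41 against -0.02 for all genes. The exceptions were Cx3cr1 and S100a9. At an unadjusted p under 0.05, 8 genes were lower and 0 higher, where all genes gave 3.09% lower and 2.52% higher. They were Ptprc, C1qc, Cd14, Mrc1, Lyz1, Ccl2, Ccl9 and Ccr2. Ptprc had a log2 fold change of -0.69 (standard error 0.19), Lyz1 one of -1.07 (0.30) and Ccl9 one of -1.30 (0.47), each with an adjusted p of 0.806 by edgeR. Lyz1 and Ccl9 were the 2 of these that lay 2-fold or more lower, beside 0.641% of all genes, and 0 members lay 2-fold higher, beside 0.31%. The libraries did not overlap for 7 members, all lower (Ptprc, C1qc, Cd14, Lyz1, Ctss, Ccr2 and Il1b), beside 4.24% of all genes lower and 4.93% higher. Without ET replicate 2 and WT replicate 1 the median was -0.27, 28 of 34 genes were lower, and 5 lower and 1 higher (Cd163, 1.25) passed an unadjusted p of 0.05. The 5 were Ptprc, Lyz1, Aif1, Clec7a and Il1b, so that of the 8 named above only Ptprc and Lyz1 remained. For that fit the shares of all genes that were lower or that passed are not given here.

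Against WT, the libraries labelled K238R were again lower in 32 of 34 genes, beside 49.9% of all genes, with a median log2 fold change of -0.46 against 0.00 for all genes. Aif1 and Cx3cr1 were the exceptions. Both comparisons share the libraries labelled K238R, so their counts are not independent. At an unadjusted p under 0.05, 12 genes were lower and 0 higher, where all genes gave 9.61% lower and 7.93% higher. Without ET replicate 2 and WT replicate 1, 4 were lower and 0 higher. The share of all genes passing in that fit is not given here. Ptprc had the lowest p, with a log2 fold change of -0.77 (95% interval -1.18 to -0.36, adjusted p = 0.0999 by edgeR). It was followed by Ctss (-0.53, interval -0.90 to -0.16, adjusted p = 0.166), Laptm5 (-0.49, interval -0.84 to -0.14, adjusted p = 0.172) and Ccr2 (-1.01, interval -1.73 to -0.28, adjusted p = 0.173). The other 8 were Trem2, Lyz2, Ccl6, Lyz1, Mrc1, Fcgr3, Clec4n and Ccl9, with log2 fold changes between -1.20 and -0.45. Ccl6, Ccl9 and Ccr2 were the 3 that lay 2-fold or more lower, beside 3.55% of all genes, and 0 lay 2-fold higher, beside 1.67%. By class, the median log2 fold change was -1.02 for the 6 chemokine, cytokine and arginase genes, -0.64 for the 3 lysozyme and cathepsin genes, -0.38 for the 6 scavenger receptors and -0.35 for the 9 leukocyte genes. Without the 2 unlike libraries these medians were -0.71, -0.35, -0.25 and -0.24, and Arg1 stood at 0.18 in place of -1.13. The C1q chains had log2 fold changes of -0.08 for C1qa, -0.26 for C1qb and -0.29 for C1qc, each with an interval that includes 0. The libraries did not overlap for 6 members, all lower (Ptprc, Laptm5, Lyz1, Ctss, Ccl6 and Ccr2), beside 11.3% of all genes lower and 12.7% higher.

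The call of Ptprc against WT turned on the tool and on 1 library. It was called by DESeq2 (log2 fold change -0.77, adjusted p = 0.0114) and when ET replicate 2 was left out (-0.77, adjusted p = 0.0422). Over the 22 alternatives its adjusted p lay between 0.0114 and 0.305, with log2 fold changes from -0.91 to -0.51. Laptm5 was called when ET replicate 2 was left out (-0.48, adjusted p = 0.0322) and when both that library and WT replicate 1 were (-0.41, adjusted p = 0.0451), in a range of 0.0322 to 0.404 over its alternatives. Without those 2 libraries the median of the 34 genes was -0.25 and 27 were lower, with the share of all genes lower in that fit not given here. For Lyz2 the log2 fold change then was -0.35 in place of -0.64, and for Ccl6 -0.60 in place of -1.20. Fibroblast and endothelial markers were lower than in WT as well, with median log2 fold changes of -0.89 and -0.45. Against ET the ranges of their sums overlapped, but the medians were -0.89 and -0.15. There 8 of 9 fibroblast and 10 of 12 endothelial markers were lower, beside 53.6% of all genes. At an unadjusted p under 0.05 (edgeR), 6 fibroblast and 0 endothelial markers were lower than in ET, beside 3.09% of all genes. The marker lists did not all go this way: the median log2 fold change of the skeletal muscle markers was 1.03 against ET and -1.13 against WT. The summed level of 9 fibroblast markers was 1321 to 2011 CPM for those labelled K238R against 3229 to 5312 for WT and 1599.8 to 4410.5 for ET, and that of 12 endothelial markers 256 to 282 CPM against 337 to 354 and 226 to 392. Their part in the lower levels of macrophage genes was not tested.

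**Figure D4:**
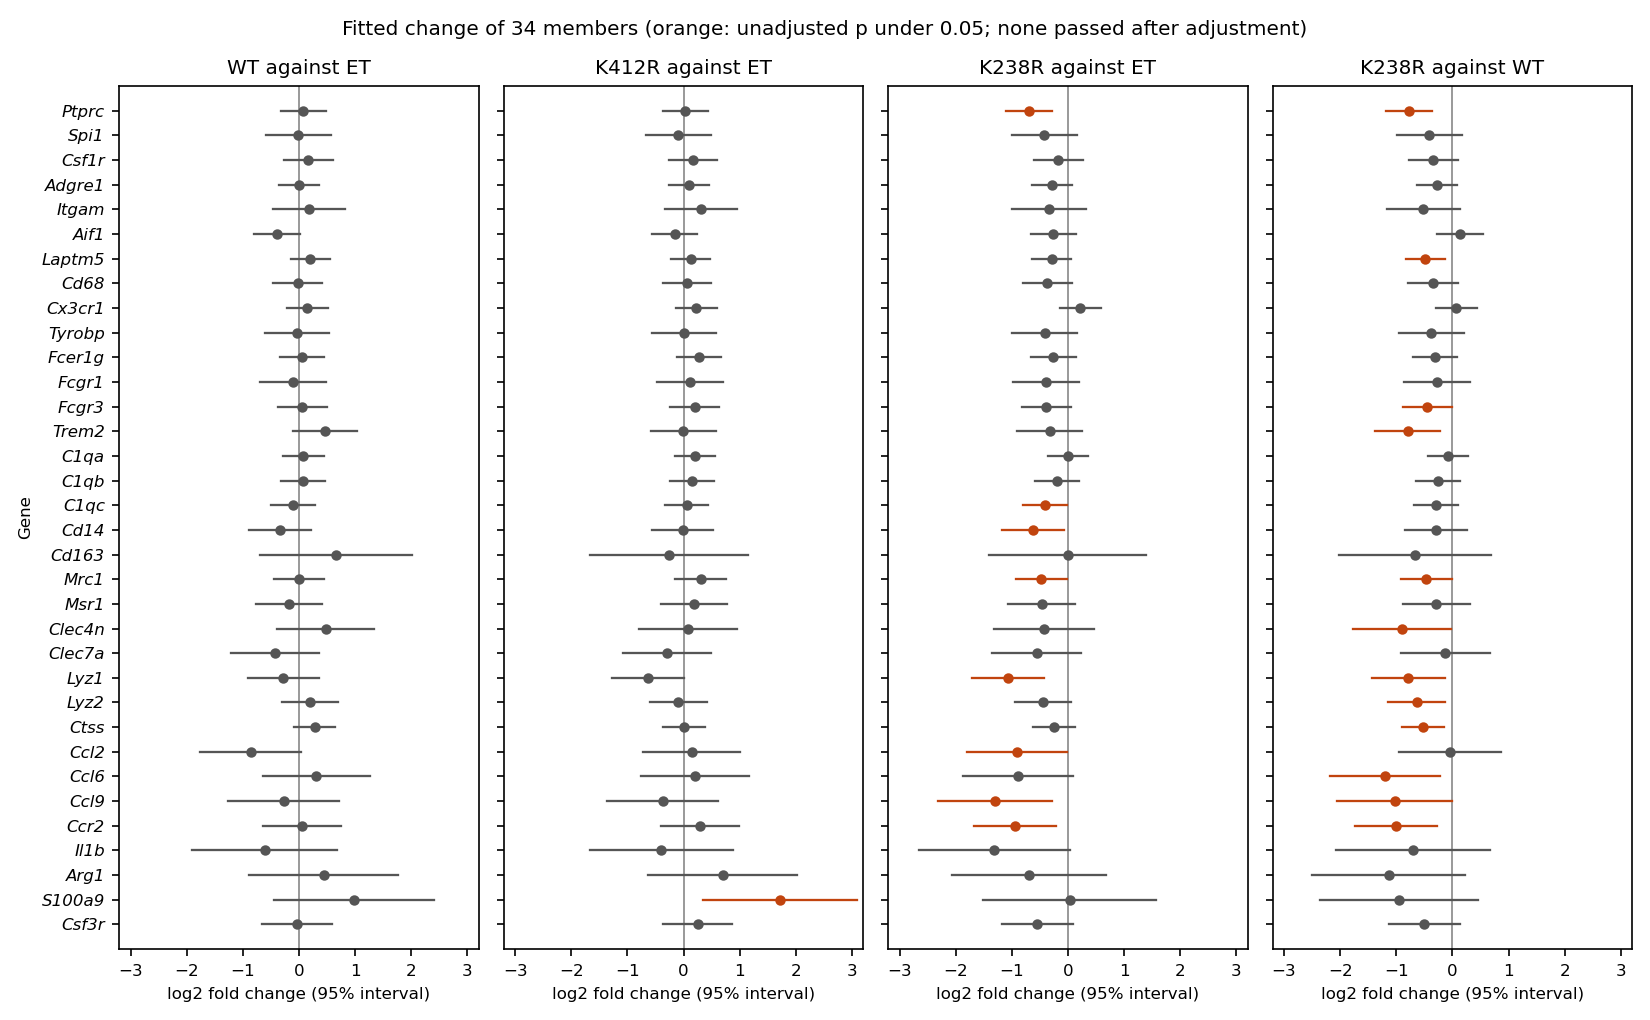
Fitted log2 fold change (points) with its 95% interval (lines) of 34 members in 4 comparisons, where K238R stands for the libraries labelled K238R; orange marks an unadjusted p under 0.05. In both panels of the libraries labelled K238R, 32 of 34 points lie left of 0, with medians of -0.41 and -0.46, whereas WT and K412R against ET have medians of 0.06 and 0.10.

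WT against ET compares teratomas with and without added wild-type Dnmt3L, and the macrophage genes lay on both sides of 0. Of the 34 genes, 18 were higher and 16 lower in WT, with a median log2 fold change of 0.06 against -0.01 for all genes, and 0 passed even an unadjusted p of 0.05, where 14.0% of all genes did so upward and 15.1% downward. The lowest p-values were those of Aif1 (-0.39, standard error 0.19, adjusted p = 0.181 by edgeR) and Ccl2 (-0.86, 0.41, adjusted p = 0.182). At 2-fold with an unadjusted p under 0.05 all genes gave 3.26% higher and 2.76% lower, and the members 0. The libraries did not overlap for Cx3cr1, higher in WT, beside 9.41% of all genes, and for Ccl2, lower in WT, beside 11.4%.

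ET replicate 2 decided what was called here. Without it 4 genes passed the adjusted threshold in WT against ET. They were Cd163 (log2 fold change 1.92, adjusted p = 0.0230, with 0.0230 to 0.839 over its alternatives), Laptm5 (0.43, adjusted p = 0.0232, with 0.0232 to 0.906), Aif1 (-0.56, adjusted p = 0.0257, with 0.0255 to 0.512) and Marco (3.94, adjusted p = 0.0160). Marco, a gene outside the 34, was tested in 12 of the fits with other settings and was called in 1 of them. Marco then stood at 1 and 0 counts in the 2 remaining ET libraries. When WT replicate 1 was left out as well, Laptm5 (0.36, adjusted p = 0.0477) and Aif1 (-0.62, adjusted p = 0.0255) were still called, Clec7a was called (-1.02, adjusted p = 0.0447, with 0.0447 to 0.914) and Cd163 was not, with a fold that stayed large (1.53, adjusted p = 0.0505). In this last fit the unadjusted p of Clec7a (edgeR) was 0.0160, not far below its adjusted p. Such closeness arises only where a large share of all genes is called. That share is not given here, so these calls are not read as particular to the members.

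K412R against ET gave 24 genes higher and 10 lower, with a median log2 fold change of 0.10 against -0.02 for all genes. One gene, S100a9, passed an unadjusted p of 0.05, higher in K412R by 1.71 on the log2 scale (95% interval 0.35 to 3.08, adjusted p = 0.561 by edgeR), where 4.38% of all genes did upward and 3.53% downward. It was past 2-fold as well, beside 0.706% of all genes higher and 0.864% lower. It rests on 2 to 7 counts in ET and 10 to 22 for K412R. Cx3cr1 and S100a9 did not overlap, higher in K412R, and Lyz1 did not overlap, lower in K412R (-0.64, adjusted p = 0.628), beside 5.01% and 5.74% of all genes. Against WT, K412R was higher in 23 of 34 genes (median 0.12, all genes 0.01), and Ccl2 alone passed an unadjusted p of 0.05 (1.01, interval 0.11 to 1.90, adjusted p = 0.175 by edgeR), beside 10.2% of all genes higher and 12.5% lower. Ccl2 was past 2-fold too, beside 1.66% of all genes higher and 3.36% lower. Aif1 did not overlap, higher in K412R, beside 14.4% of all genes, and Cd163 did not overlap, lower in K412R, beside 16.6%. Arg1 was called only when ET replicate 2 and WT replicate 1 were both left out (1.56, adjusted p = 0.0337, with 0.0337 to 0.972 over its alternatives), while without WT replicate 1 alone it was at 1.57 with an adjusted p of 0.0662. Without both libraries the median of the 34 genes was 0.26 against ET, where 4 genes were lower, and 0.29 against WT, where 7 were lower. At an unadjusted p under 0.05 (edgeR), 0 genes were lower and 6 higher against ET, and 0 lower and 6 higher against WT. The share of all genes passing in that fit is not given here.

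Single libraries carried much of the spread. WT replicate 1 was above the 12-library mean in 30 of the 34 genes and ET replicate 2 in 28, as were 24, 28 and 27 genes in K412R replicates 1, 2 and 3. The median deviation from that mean was 0.44 on the log2 scale in WT replicate 1 and 0.32 in ET replicate 2, but -0.09 and -0.12 in WT replicates 2 and 3. Replicates 2 and 3 of the libraries labelled K238R were above the mean in 3 and 1 of the 34 genes, with medians of -0.42 and -0.44, whereas replicate 1 was above it in 12 with a median of -0.07. WT replicate 1 was the highest library for 14 of the 34 genes, and replicates 2 and 3 of the libraries labelled K238R the lowest for 11 and 14. The mean of the libraries labelled K238R was the lowest of the 4 group means for 29 genes, and that of K412R the highest for 17. Shares of all genes for the counts in this paragraph are not given here, so the counts are not read as particular to the members.

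Levels were also set against the summed level of the 9 leukocyte genes in the same library, a ratio that does not depend on scaling. Of the 25 tested genes outside that sum, 22 had a narrower span in this ratio than in their level, the exceptions being Msr1, Clec7a and Il1b. Fcer1g ran from 0.056 to 0.076 of the leukocyte sum and C1qc from 0.181 to 0.247. Lyz2 ran from 0.566 to 1.03 and Ctss from 0.162 to 0.257, both highest in WT replicate 1. Arg1 spanned 0.0188 to 0.110 with its highest ratio in WT replicate 1, Cd163 0.00342 to 0.0148 and Il1b 0.00131 to 0.0160, the latter lowest in WT replicate 1. In that teratoma lysozyme, cathepsin S and arginase were thus high, and Il1b low, for its content of leukocyte transcripts. Other teratomas came near it for Ctss (0.236 in ET replicate 3) and Arg1 (0.0952 in K412R replicate 1). Il1b was near as well, at 0.00198 in replicate 3 of the libraries labelled K238R, and rests on 4 counts in each of these libraries.

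Markers of other blood cells were read beside these genes. Of the T cell receptor complex, Cd3e had 5 counts in all 12 libraries together, Cd3d 4 and Cd3g 5. For B cells, Ms4a1 had 1 count in all and Cd79a 30, and for NK cells the receptor Ncr1 had 6. Summed over the 15 T cell genes found, the level was 9.21 to 13.2 CPM, of which Lck, a kinase that other tissues also transcribe, gave 3.73 to 5.80. The 10 B cell genes summed to 6.23 to 57.1 CPM, of which Pax5, a developmental transcription factor also of midbrain, gave 1.35 to 53.3. The 11 NK cell genes were at 1.33 to 5.62 CPM, highest in WT replicate 1, and the 12 mast cell and eosinophil genes at 0.723 to 2.57 CPM. The Cd3 genes, Ms4a1, Cd79a and Ncr1 were therefore at or near 0 in teratomas where Csf1r was counted 373 times or more. These single genes were picked after their values were seen, and the T, B and NK cell lists as a whole were not at 0. Lck gave only a part of the T cell sum, and the other genes behind the T and NK cell sums are not named here.

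**Figure D5:**
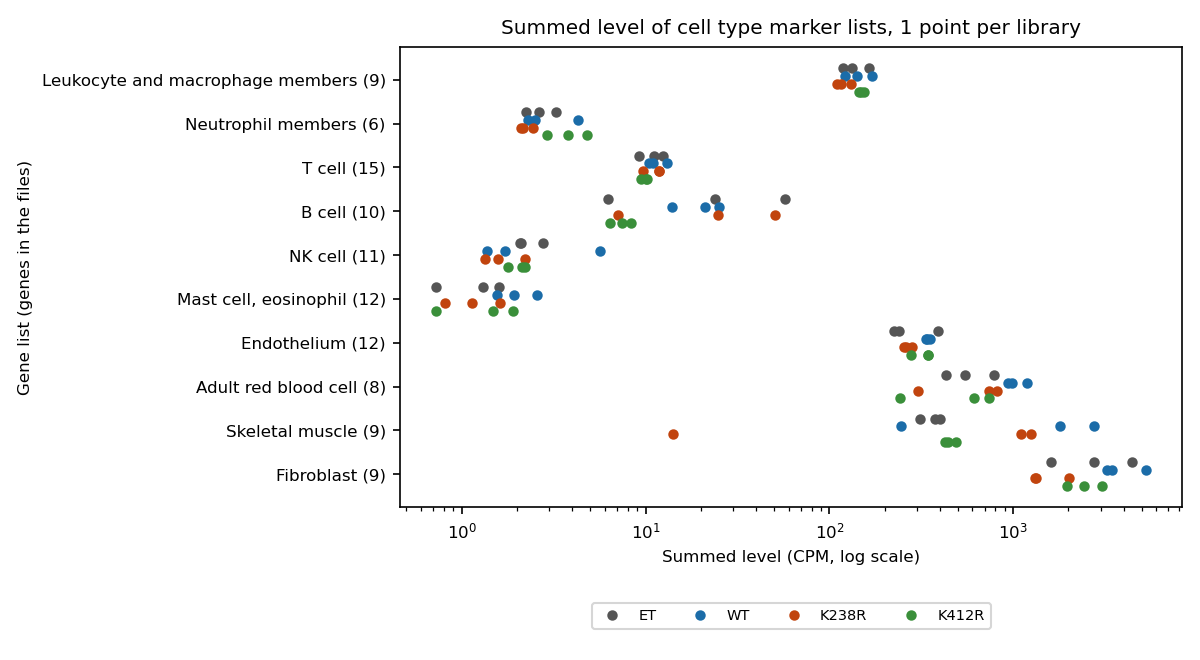
Summed level (CPM, log x axis) of the leukocyte and neutrophil members and of 8 marker lists, 1 point per library, coloured by group (K238R stands for the libraries labelled K238R). The leukocyte members lie between 109.6 and 171 CPM, whereas the NK cell and mast cell lists lie at no more than 5.62 and 2.57 CPM. The B cell list reaches 57.1 CPM, and Pax5 alone reaches 53.3.

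The wider myeloid programme was read from 7 further lists of macrophage, phagocyte oxidase and signalling, complement, innate sensor, ligand, polarisation and neutrophil genes, 141 of which were tested. In the libraries labelled K238R against WT 1 was called, lower, in K412R against WT 1 was called, higher, and 0 were called in the comparisons with ET. At an unadjusted p under 0.05, 4 of the 141 were lower and 14 higher in WT against ET (2.84% and 9.93%, beside 15.1% and 14.0% of all genes). For those labelled K238R, 17 were lower and 1 higher against ET (12.1% and 0.709%, beside 3.09% and 2.52%), and 35 were lower and 5 higher against WT (24.8% and 3.55%, beside 9.61% and 7.93%). K412R had 0 lower and 8 higher against ET (5.67% higher, beside 4.38%) and 7 lower and 6 higher against WT (4.96% and 4.26%, beside 12.5% and 10.2%). For the libraries labelled K238R, the 141 genes had a median log2 fold change of -0.32 against ET and -0.37 against WT, with 118 and 121 of them lower. The medians of the other 3 comparisons were between -0.02 and 0.08 over all 7 lists together.

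The neutrophil list is given by itself, since its medians lay far from those of the 7 lists together. Its 28 genes summed to 72.2 to 80.9 CPM for WT, 82.7 for ET replicate 2, 27.2 and 16.7 for ET replicates 1 and 3, 20.4 to 29.7 for those labelled K238R and 32.3 to 51.5 for K412R. WT and ET replicate 2 were the high libraries. Of its 9 tested genes, 9 were higher in WT than in ET (median log2 fold change 1.07, 5 without overlap of libraries), 9 were lower in K412R than in WT (median -0.48) and 8 were lower in the libraries labelled K238R than in WT (median -1.73, 7 without overlap). Besides Ltf, below, none of these was called. Of all genes tested, 9.41% were higher without overlap in WT against ET and 11.3% lower without overlap in the libraries labelled K238R against WT. By sign alone, 50.8% of all genes were lower in WT against ET, 48.8% in K412R against WT and 49.9% in the libraries labelled K238R against WT.

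Ltf (lactoferrin, an iron-binding protein of neutrophil granules and of secretory epithelium) was the gene called in the libraries labelled K238R against WT. It stood at 10.6, 7.14 and 10.7 CPM for WT, 1.67, 1.78 and 2.39 for those labelled K238R, 2.22, 4.19 and 1.501 for ET and 3.62, 8.31 and 9.54 for K412R (log2 fold change -2.33, standard error 0.40, adjusted p = 0.0495). Of the other tested genes of its list, Pglyrp1 (a peptidoglycan-binding protein of neutrophil granules) had a log2 fold change of -2.18, Cd177 (a neutrophil surface protein) one of -1.74 and Mmp9 (a gelatinase) one of -1.61, none of them called. The granule genes Ngp, Camp and Elane, with 13, 9 and 6 counts in all 12 libraries, were too low to be tested. Ccl11 (eotaxin, the attractant of eosinophils) was the gene called in K412R against WT, at 6.13, 5.54 and 7.75 CPM against 3.15, 2.79 and 3.08 (log2 fold change 1.08, standard error 0.24, adjusted p = 0.0434), while Ccr3, its receptor on eosinophils, stood at 0.16 to 0.85 CPM over the 12 libraries. Among the macrophage genes, the lysosomal protease Lgmn was at 92.8 to 132 CPM, the clearance receptor Stab1 at 30.4 to 58.5 and the pore-forming protein Mpeg1 at 24.8 to 49.1. In the complement list C4b was at 31.03 to 81.1 CPM, and in the signalling list the kinase Syk was at 16.3 to 22.8. None of these 5 was called in any comparison.

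The microglia list, the marker list nearest to macrophages, summed over 7 genes to 198 to 254 CPM for ET, 144.5 to 197 for WT, 172 to 216 for those labelled K238R and 208 to 230.4 for K412R. Every WT library lay below every ET library, by a narrow margin at the nearest pair (ET replicate 2 at 197.7 and WT replicate 1 at 196.8). Of all genes tested, 11.4% were lower without overlap in WT against ET. By gene, 4 of the 7 were lower in WT and 3 higher, with a median log2 fold change of -0.11. Olfml3, a secreted glycoprotein of microglia and stromal cells, was called in K412R against WT. It stood at 49.5, 48.1 and 56.2 CPM for K412R, 36.3, 34.9 and 32.7 for WT, 42.8, 43.99 and 36.7 for ET and 32.1, 35.9 and 29.7 for those labelled K238R (log2 fold change 0.55, standard error 0.10, adjusted p = 0.0230 by edgeR). In the fibroblast list Dpt, an extracellular matrix protein, was lower in K412R than in WT, by a log2 fold change of -2.80 (standard error 0.57) with an adjusted p of 0.0358.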

How the data were processed

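Polyadenylated RNA of 12 teratomas, 3 each of ET, WT, K238R and K412R as the labels give them, had been sequenced in read pairs. Per the submitters' processing notes and the study's methods, the authors trimmed reads with fastp, mapped them with STAR to GRCm39 and quantified genes with Salmon; the annotation is not given in the sources used here. The deposited values are estimated counts per gene symbol, stored as whole numbers and not scaled between libraries, so that shared sequence between gene copies affects them. The authors tested with DESeq2.

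Here edgeR 4.0.16 (quasi-likelihood test, robust option, TMM scaling, filterByExpr; R 4.3.3) was fitted to all 12 libraries and 18405 genes, with Benjamini-Hochberg adjustment and a threshold of 0.05. Levels are CPM of the library total. On simulated data for WT against ET (18182 genes, 200 of them changed), 170 were called among 180 calls. DESeq2 1.42.0, other scalings and filters, a replicate block, 2 groups alone, a fit without the robust option, each library left out and both unlike libraries left out were tried; the last of these and the non-robust fit were chosen after the data were seen.

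The 40 members, the marker lists and the tests were chosen with earlier results of these data known. All members are described. From other lists the text names genes called in a comparison or, where none is, up to 3 of the highest mean CPM; the single defining markers of other cell types, Ngp, Camp, Elane, Pglyrp1, Cd177, Mmp9 and the genes named beside a called gene were chosen after their values were seen. Outside the lists, up to 15 genes were named by their correlation with the members.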

Additional observations from a re-analysis of the deposited data

How the results depend on the processing

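Of 3731 values of single members under the alternatives, 3720 kept their side of the threshold and 11 passed it where they had not (K238R here stands for the libraries labelled so). The sign of the log2 fold change turned in 168, of which 28 of 170 were without ET replicate 2 and WT replicate 1, and 0 of these were called or had an unadjusted p under 0.05 in the fit with all libraries. With DESeq2, 1 member was called in K238R against WT and 1 for any difference, and 1 passed 2-fold with an unadjusted p under 0.05 in WT against ET (0 with edgeR). That 2-fold count was also 1 in WT against ET without the low-count filter. It was 1 in K238R against WT with library totals in place of TMM (3 with TMM), and 0 in K412R against ET when 1 CPM in 3 libraries was required (1 otherwise). With 2 groups alone it was 1 in K238R against ET (2 with all groups), 0 in K412R against ET and 0 in K412R against WT. Leaving out both ET replicate 2 and WT replicate 1 gave 3 called and 2 past 2-fold in WT against ET, 1 and 1 in K238R against WT, 1 and 2 in K412R against WT, and 4 called for any difference. The cause was not tested. Shares of all genes called under these alternatives are not given here, so the counts are not read as particular to the members.

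Leaving out each library in turn, the members called numbered 0 to 4 in WT against ET, 0 to 2 in K238R against WT, 0 to 3 for any difference and 0 to 0 elsewhere, each highest without ET replicate 2. The 2-fold count was 0 to 2 in WT against ET, 0 to 4 in K238R against ET, 0 to 2 in K412R against ET, 1 to 4 in K238R against WT and 0 to 2 in K412R against WT. The median log2 fold change ran from -0.14 to 0.17, -0.58 to -0.27, 0.011 to 0.28, -0.53 to -0.26 and 0.02 to 0.30 in the same order.

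Deviations from group means correlated at -0.26 to 0.39 over 18 same-numbered pairs (median 0.072, 7 over 0.1), beside a median of -0.043 over the 36 other pairs. These values do not settle whether replicate numbers pair the libraries. With a replicate block 0 members were called in each comparison, and the 2-fold count of K412R against WT was 0 (1 without it). Depth limits the genes under about 20 counts per library, S100a9, Il1b and Ccr2 among those tested.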

Other observations

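The genes outside the 40 whose level most resembled the macrophage members were found by correlating log2 CPM with the mean of the 17 leukocyte, Fc receptor and complement genes over the 12 libraries, which all share the same counts and scaling. Of 18405 genes, 62 had a Pearson r over 0.8. The first was Pld4, an endolysosomal exonuclease of myeloid cells (r = 0.94 over all libraries and 0.95 for deviations within groups), followed by Unc93b1, the chaperone of endosomal Toll-like receptors (0.91), Gadd45b, a stress-response gene (0.91), Pf4, a chemokine of platelets and macrophages (0.90), and the protease Lgmn (0.90). Ostf1, Lrrc25, Ms4a6d, Hcls1, Gm5528, S100a6, Selenop, Mcoln2, Grn and Selplg completed the 15, with r down to 0.85, and 6 of the 15 were in a list of myeloid genes drawn up separately. Aif1 (0.01), Cx3cr1 (0.13), Clec7a (0.19) and Il1b (-0.06) were the members least like the mean.

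Hdc, the enzyme that makes histamine in mast cells, basophils and neutrophils, is named here after its values were seen. It stood at 17.7, 16.8 and 15.9 CPM in WT and 15.2 in ET replicate 2, but at 3.07 and 2.39 in the other ET libraries, 2.70 to 4.17 in the libraries labelled K238R and 6.35 to 10.2 in K412R. The mast cell protease Cpa3 had 20 counts over all 12 libraries.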
